A study of Mus musculus with 16 samples.

Results

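The comparison here is between unstressed left ventricles of female and male mice. It rests on the 8 sham arrays, 4 per sex, out of the 16 arrays of the series, chosen by the letters Sw (female) and Sm (male) in the sample titles and by the sex given in the labels. All 8 animals were C57BL/6J mice that had undergone a sham operation, were 12-14 weeks old and gave left ventricular total RNA 14 days after surgery. The other 8 arrays, used below for comparison only, came from mice of the same strain and age with transverse aortic constriction (TAC), a band around the aorta that raises the pressure load on the left ventricle, again 4 per sex. Each sample had an Affymetrix mouse 430A array of its own. Per the labels, the shams received buprenorphine for pain relief on the days after the chest was opened, and ketamine with isoflurane is named as anaesthesia for TAC. The stage of the female cycle and the hormone levels are not given in the sources used here. Of 19667 probe sets (groups of oligonucleotides that together measure a transcript) for 11957 autosomal genes on the array, 12055 probe sets for 8010 genes lay above a mean signal of 130.8 over all arrays and were tested.

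Genes are described by 4 roles: innate immune genes, genes of the extracellular matrix, genes of steroid reception and metabolism, and genes of energy metabolism. Type I interferons are secreted proteins of antiviral defence. Their receptor activates a transcription factor complex that binds the interferon-stimulated response element in the promoters of its target genes, whose products sense viral RNA, block its translation or mark proteins with the ubiquitin-like modifier Isg15. In the ventricle, fibroblasts make most of the collagens and proteoglycans of the matrix, glucocorticoids act on all cell types through the receptor Nr3c1, and cardiomyocytes draw most of their energy from the mitochondrial oxidation of fatty acids.

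In all, 30 probe sets, for 28 autosomal genes, differed between female and male shams at an adjusted p below 0.05 (limma, 1 model over all 16 arrays, Benjamini-Hochberg over 13576 probe sets), which was 0.249% of those tested (10.3% had an unadjusted p below 0.05). With 1 probe set per gene, 0.287% of genes passed. Of these, 23 probe sets for 21 genes were lower in females (0.191%) and 7, for 7 genes, were higher (0.0581%). The lower ones were led by interferon-stimulated genes such as Ifit1, Ifit2, Ifit3, Usp18 and Trim30a, joined by the metalloproteinase inhibitor gene Timp4 and the membrane dipeptidase gene Dpep1. The higher ones were Cks2, Itih5, Lum, Dab2, Actg1, Vim and Mcl1. No steroid or metabolic gene on the lists described below passed that threshold. The female and male values did not overlap for any of the 30 probe sets. Over all 8010 genes, with 1 probe set per gene, the median log2 difference was -0.0073. A log2 difference here is a difference of means of log2(signal + 16), female minus male.

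The Y-linked and X-linked genes that check the labels separated the groups without overlap. Xist, which silences an X chromosome in female cells, had signals of 218.1 to 319.7 on male and 2815.8 to 4021.1 on female sham arrays, and Eif2s3y, a Y-linked gene, had signals of 423.3 to 681.3 on male and 5.4 to 15.1 on female sham arrays. Correlations between arrays were taken over the 13576 probe sets above the signal limit, sex-linked ones included. They lay between 0.931 and 0.952 among female shams, between 0.941 and 0.945 among male shams and between 0.92 and 0.944 across the sexes. Cardiomyocyte markers gave the tissue its profile: all 13 ventricular cardiomyocyte markers were above the signal limit, and 0 of 9 skeletal muscle markers were. The running numbers in the titles put the male shams at 9 to 12 and the female shams at 13 to 16, so any effect of such an order cannot be told apart from sex. On bulk ventricle, fewer cells of a type and less RNA per cell cannot be told apart either. The labels call the samples biological replicates hybridised separately, and 4 arrays per group set the limit of precision.

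The promoter sequences of 4 called genes are shown because the core letters of the interferon-stimulated response element lie close to their starts. These letters are GAAA and GAAA with any 2 bases between them, on either strand (TTTC and TTTC when read from the other). They were found for 8 of the 19 genes called lower whose promoter sequence was available. Each line gives 70 bases around a match, all upstream of the RefSeq start (GRCm38.p6), read 5′ to 3′ along the gene, with matches that lie whole within the line in capitals.
Ifit1, chr19:34640755-34640824, plus strand: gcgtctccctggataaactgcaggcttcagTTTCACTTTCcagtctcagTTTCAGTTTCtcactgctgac
Ifit3, chr19:34583343-34583412, plus strand: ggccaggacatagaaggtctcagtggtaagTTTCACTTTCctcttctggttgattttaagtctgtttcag
Bst2, chr8:71537563-71537632, minus strand: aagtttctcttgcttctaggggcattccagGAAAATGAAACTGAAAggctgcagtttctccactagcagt
Trim30a, chr7:104465194-104465263, minus strand: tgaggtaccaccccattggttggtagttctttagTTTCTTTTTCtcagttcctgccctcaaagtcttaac

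In Ifit1 the matches were TTTCACTTTC and TTTCAGTTTC, and in Bst2 the overlapping GAAAATGAAA and GAAACTGAAA. Over windows from 250 bases before to 50 bases after the start, 8 of 19 genes called lower with a window in the table held at least 1 match (42.1%), against 257 of 6490 autosomal genes tested (3.96%) and 1131 of all 32851 windows (3.44%). None of the 6 genes called higher that had a window held one. Among the interferon-stimulated genes of the list used below, 15 of the 27 tested that had a window held a match (55.6%). Of the 10 called lower that had a window, 4 held a match (40%), and these are the genes shown. Outside that list, 4 of 9 genes called lower held one: Ifitm3, Lgals9, Mndal and Trim34a. A match of letters is a description of the window and does not show that a factor binds there.

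Interferon-stimulated genes were lower in female shams almost throughout. The list, like the others here, was chosen with earlier results of these data known. Its members were measured on the same arrays, so the counts below are not independent observations. Of 54 genes on the list, 40 were autosomal and on the array and 37 were tested. Of these, 12 were lower in females at the threshold and 0 were higher, against 0.237% called lower of all genes with 1 probe set each and 0.0499% called higher. A lower female mean was found for 36 of the 37 (51.0% of all genes), 34 had an unadjusted p below 0.05 in that direction (5.72% of all genes, and 5.09% as higher), and for 28 all 4 female values lay below all 4 male values (3.78% of all genes, and 3.62% in the other direction). The list's median log2 difference was -1.15, and -1.21 over all 40 genes on the array, 39 of which had a lower female mean (51.9% of all autosomal genes without the signal limit) and 37 an unadjusted p below 0.05 as lower (5.13%). The largest differences belonged to the Ifit family, whose proteins bind viral RNA and restrain its translation.

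Ifit1 had signals of 2610.9, 1201.0, 3223.1 and 2191.3 on male sham arrays 1 to 4 and of 388.7, 409.0, 348.2 and 448.1 on female sham arrays 1 to 4. The female arrays lay close together and far below the male ones, among which male sham 2 was the lowest. The difference was -2.40 ± 0.35 (log2, SE, n = 4 per sex), or 5.3-fold lower in females (limma adjusted p = 0.00234). Ifit3 followed the same order of arrays, with 2664.8, 1251.1, 3880.6 and 2950.7 in males against 505.3, 569.8, 517.1 and 512.3 in females, a log2 difference of -2.21 (limma adjusted p = 0.00325). Ifit2 had 1610.4, 600.2, 2410.2 and 2474.4 in males and 373.2, 165.1, 225.9 and 283.1 in females. Here too the lowest male array was male sham 2, and the groups did not overlap (-2.55 ± 0.43, limma adjusted p = 0.00781). Without male sham 3 this call ended (limma adjusted p = 0.0506).

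Regulators of the response were lower as well. Usp18, the protease that removes Isg15 from proteins and restrains signalling at the interferon receptor, had signals of 1381.2, 551.4, 1567.1 and 1306.4 in males and of 171.7, 389.4, 314.1 and 292.5 in females. The male sham 2 array again came nearest to the females (-1.94 ± 0.33, limma adjusted p = 0.00775), and without male sham 3 the adjusted p was 0.0501. Irf7, the transcription factor that amplifies interferon production, had signals of 1055.4, 737.8, 1230.7 and 1637.9 in males and of 504.1, 406.6, 513.0 and 567.2 in females. All female values lay below all male values (-1.15 ± 0.23, limma adjusted p = 0.022). That call was lost without any of 6 of the 8 sham arrays (male sham 1, 3 or 4, female sham 1, 2 or 3), with adjusted p up to 0.0918. Irf9 (-0.98, limma adjusted p = 0.101) and Stat2 (-0.87, limma adjusted p = 0.415), subunits of the factor that binds the element, did not pass.

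Among effectors, Trim30a, a tripartite motif protein induced by interferon, had signals of 1632.4, 889.3, 2094.0 and 1411.3 in males and of 435.4, 399.1, 453.2 and 481.8 in females. Every male array exceeded every female array, and the difference had the smallest adjusted p of all autosomal probe sets (-1.67 ± 0.23, limma adjusted p = 0.00104). The other probe set of the gene was also lower (-1.23, limma adjusted p = 0.0324). Oasl2, related to the enzymes that make 2′-5′ oligoadenylate on double-stranded RNA, was lower by a log2 difference of -1.53 (limma adjusted p = 0.00739). The mitochondrial nucleotide kinase gene Cmpk2 (-1.80), the virion tether gene Bst2 (-1.41), the ADP-ribosyltransferase gene Parp14 (-1.32), Ifi35 (-1.21) and the secreted glycoprotein gene Lgals3bp (-0.94) were lower too, with limma adjusted p between 0.0134 and 0.0195. Rsad2 (-1.53), Ifih1 (-1.21) and Oasl1 (-1.14) lay just outside the threshold, with limma adjusted p of 0.0503, 0.0503 and 0.0517.

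Of 9 interferon-inducible GTPase genes tested, 0 passed with limma. For 4 of them, named after their values were seen, all female values lay below all male values (3.78% of all genes). These were Ifi47 (-1.64, limma adjusted p = 0.128), Gbp3 (-1.13, 0.204), Irgm1 (-0.97, 0.217) and Gbp7 (-1.27, 0.245). Irgm2 (-1.74, limma adjusted p = 0.291), Gbp6 (-1.34, 0.294), Gbp2 (-1.09, 0.435), Igtp (-1.03, 0.469) and Iigp1 (-1.02, 0.482) had lower female means, but their groups overlapped. For Gbp2, which acts on membranes around intracellular pathogens, signals were 1636.4, 655.4, 1708.2 and 1677.7 in males and 567.9, 641.4, 706.8 and 549.3 in females. Male sham 2 lay within the female range. The remaining tested member with a higher female mean was Dhx58 (0.265, limma adjusted p = 0.754), a helicase of the RNA sensor family, and the signs of both further probe sets were opposite.

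**Figure D1:**
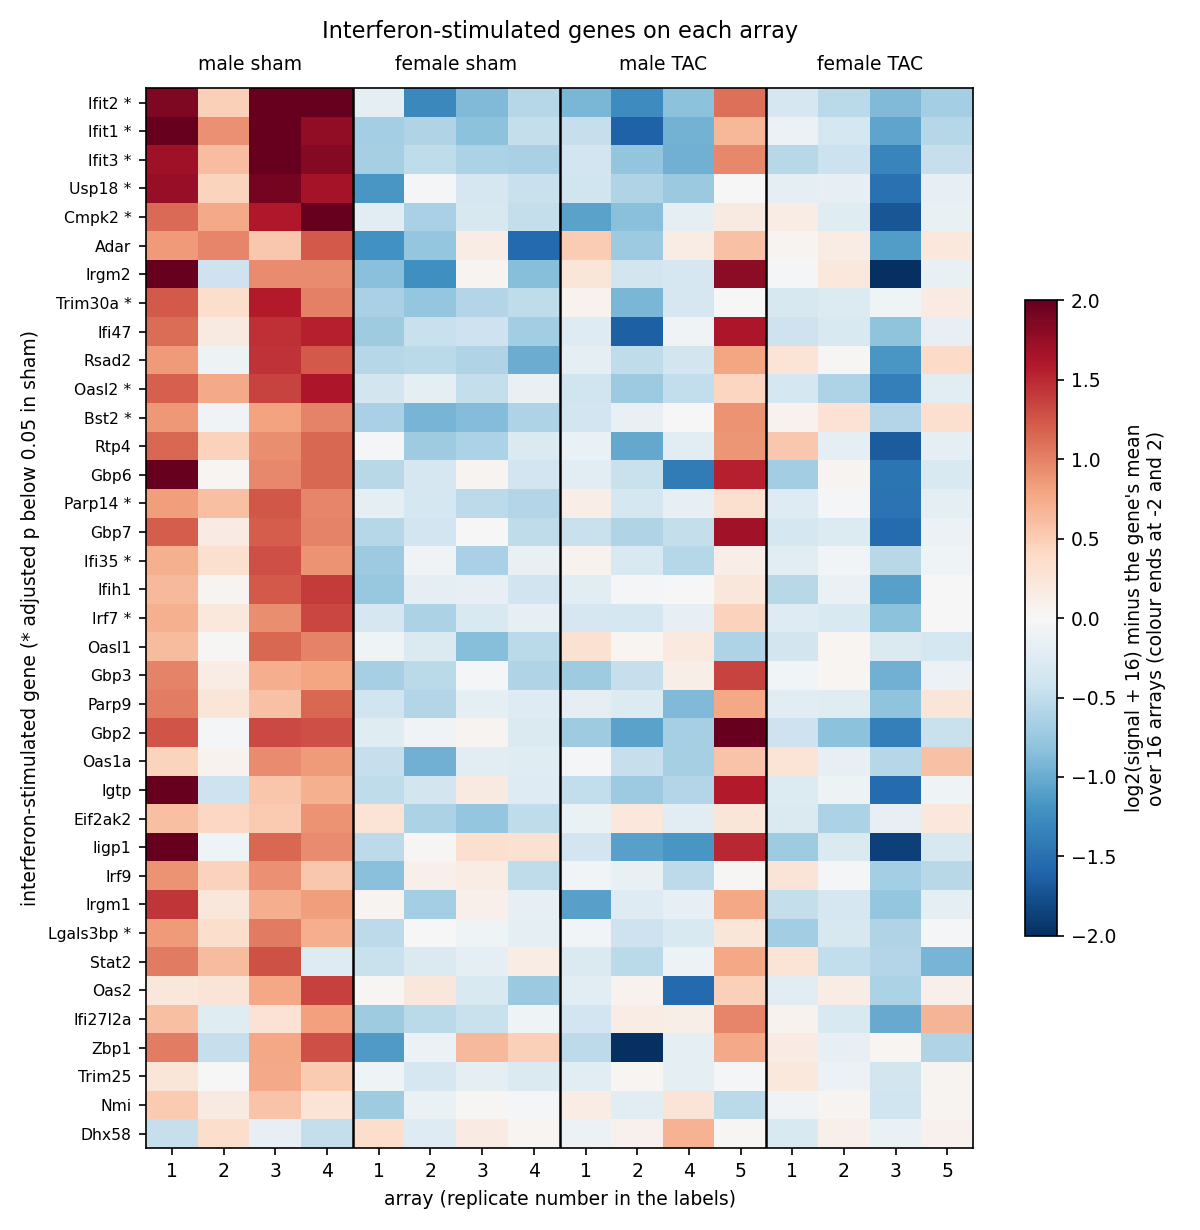
Each cell is 1 of the 37 tested interferon-stimulated genes (rows, sorted by the sham difference) on 1 of the 16 arrays (columns), coloured by log2(signal + 16) minus the gene's mean over 16 arrays, and asterisks mark the 12 genes called lower in female shams. Male sham 1, 3 and 4 are high for most genes, male sham 2 is nearer the mean, and male TAC 5 is the TAC array with high values.

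The arrays differed within the sexes in the level of the whole list. The median deviation of the 37 genes from their means over the 8 sham arrays was 0.80, 0.79 and 0.86 on male sham 1, 3 and 4 but 0.01 on male sham 2. On the female shams it was -0.77, -0.64, -0.40 and -0.62, so that all 4 lay below all 4 male arrays. The summed signal of the list ran from 30351 to 70950 on male and from 19554 to 23630 on female shams. The 5′ probe set of the 18S ribosomal RNA control, a measure of RNA and labelling, moved with it. Its log2 signal was 13.37, 12.65, 13.82 and 13.54 on male sham 1 to 4 and 10.74, 11.77, 12.50 and 12.79 on female sham 1 to 4, a difference of -1.40 (exact permutation test, 2-sided, p = 0.0571, adjusted 0.229 over 4 measures, where 0.0286 is the smallest p the design allows). The 3′ to 5′ ratios of Gapdh (exact permutation p = 0.6) and actin (0.286) and the median signal (0.543) did not pass.

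With the 18S signal as a covariate in the model over all arrays, 5 of the 12 interferon calls (Ifit1, Ifit2, Ifit3, Trim30a and Oasl2) and 11 of the 30 calls in all held, and 1 further interferon-stimulated gene passed. With the sham arrays alone and the same covariate, chosen after the data were seen, 0 of the 37 interferon-stimulated genes passed, 24 had an unadjusted p below 0.05, and Ifit1 had an adjusted p of 0.0839. The Gapdh ratio as a covariate ended 2 of the 30 calls. Without male sham 3, 4 interferon-stimulated genes passed, and without male TAC 5, which enters through the shared spread, 19 did. The part of 18S or of RNA handling in the differences was not tested beyond these fits.

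**Figure D2:**
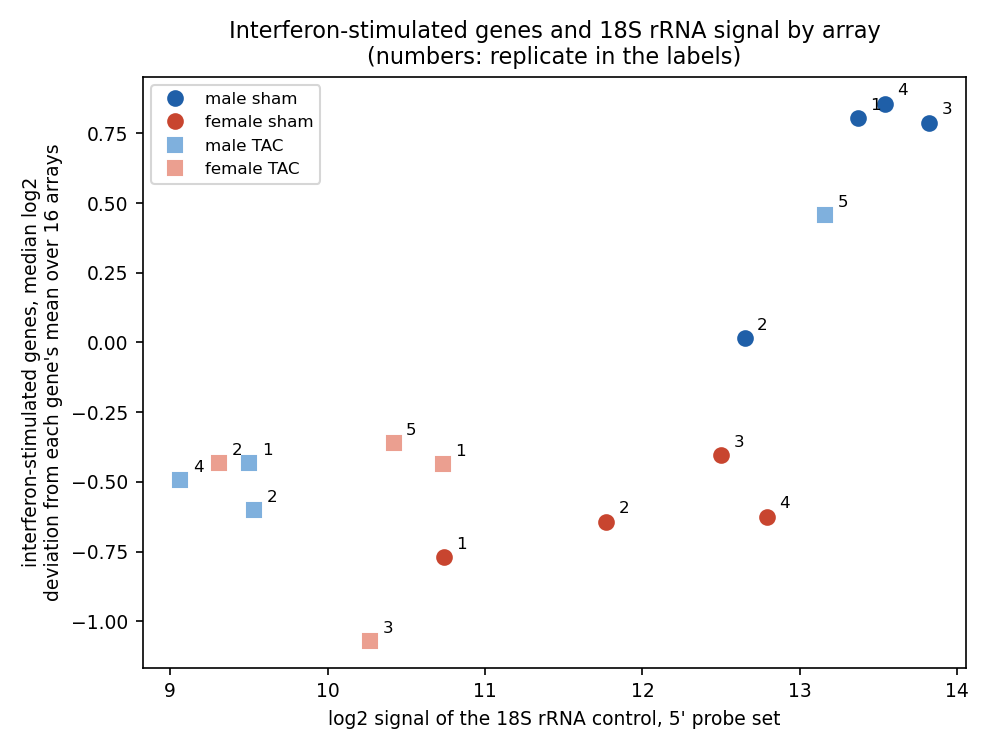
The vertical axis gives the median log2 deviation of the 37 interferon-stimulated genes from their means over the 8 sham arrays (the axis label names 16 arrays). The horizontal axis gives the log2 signal of the 5′ probe set of 18S ribosomal RNA, with 1 point per array, numbered by replicate and coloured by group. Male sham 1, 3 and 4 and male TAC 5 lie highest on both axes, and female sham 3 and 4 (-0.40 and -0.62) lie below male sham 2 (0.01) at similar 18S signals (12.50, 12.79 and 12.65).

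Other genes that interferon is known to induce, named here after their values were seen, were also called lower. They were Ifitm3, which blocks the entry of viruses from endosomes (-1.22, limma adjusted p = 0.0165), Trim34a (-1.39, 0.00775), the galectin gene Lgals9 (-1.17, 0.0159) and Mndal (-1.18, 0.0463), a relative of sensors of DNA. Ifitm3 signals were 10977.8, 6518.6, 12753.2 and 8654.9 in males and 3190.5, 5259.6, 3580.2 and 4368.6 in females, with no overlap. The other probe set of Trim34a had the opposite sign.

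The remaining innate immune lists had no member past the threshold, with limma. Among 24 pattern recognition genes, 1 had an unadjusted p below 0.05 as lower and 1 as higher. The lower one was Irf1, a transcription factor induced by both classes of interferon, with signals of 1994.5, 2056.9, 2432.7 and 1763.1 in males and 1412.0, 1326.2, 1578.4 and 833.7 in females (-0.70, limma adjusted p = 0.104). Its groups did not overlap. Among 20 antigen presentation genes, the 3 with an unadjusted p below 0.05 all had lower female means (5.72% of all genes). They were led by the peptide transporter gene Tap1 (-1.01, limma adjusted p = 0.0906) and the proteasome activator gene Psme1 (-0.40, 0.401). The class I heavy chain genes H2-K1 (0.27, 0.721) and H2-D1 (0.37, 0.6) had higher female means. The medians of the lists were -0.06 and -0.13.

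Of 15 complement genes, 12 had a lower female mean (51.0% of all genes), 1 was higher (C1ra, 0.57) and 1 lower (C1qa, -0.30) at an unadjusted p below 0.05, and the median was -0.10. Their summed signal ran from 33505 to 37337 on male and from 27602 to 32065 on female shams, without overlap, while their median deviations overlapped. Such a sum rests mostly on the brightest probe sets, here those of C1qbp and Clu. Clu, the abundant chaperone clusterin, named after its values were seen, was the 1 member whose female values all lay below the male values (-0.42, limma adjusted p = 0.567). Chemokine and cytokine genes split, 2 higher and 2 lower of 21 at that level (5.09% and 5.72% of all genes). Their summed signal was higher on every female sham (12135 to 12682) than on every male sham (11355 to 11757), while their median deviations overlapped. Il1b, the inflammatory cytokine interleukin 1β, had signals of 183.5, 219.3, 227.2 and 184.8 in males and 335.1, 277.0, 356.3 and 312.3 in females. Every female array was above every male array, although the gene did not pass (0.61 ± 0.17, limma adjusted p = 0.16). Cxcl12, the chemokine of stromal cells that retains leukocytes, was similar (0.62, limma adjusted p = 0.253), with 1418.0 to 1638.7 in males and 2266.7 to 2578.5 in females. Of 16 genes of the NF-κB pathway 1, the kinase gene Ikbkb (0.34, 0.417), and of 9 neutrophil and acute phase genes 0 had an unadjusted p below 0.05.

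Markers of immune cells were checked beside these lists. Macrophage markers had a median difference of 0.05 over 17 tested genes, none called, and their summed signal ran from 11622 to 13275 on female and from 11856 to 16471 on male shams. Of the T and NK cell markers only 3 of 17 on the array, and of the neutrophil markers only 3 of 9, lay above the signal limit, and their sums overlapped between the sexes (454 to 593 against 486 to 563, and 587 to 873 against 712 to 802, females first). Their part in the interferon difference was not tested.

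Matrix genes differed singly rather than as lists. Timp4, the inhibitor of metalloproteinases most typical of the heart, had signals of 1308.9, 1278.0, 1184.2 and 1168.4 in males and of 172.3, 328.0, 320.4 and 511.8 in females. The males were tightly grouped and all lay far above the highest female, female sham 4. The log2 difference was -1.93 ± 0.28, or 3.82-fold lower in females (limma adjusted p = 0.00234), and the other probe set had the same sign. Among the other 28 protease and inhibitor genes tested, 0 passed, and the list's median was 0.08. At an unadjusted p below 0.05, 3 of them were higher in females, against 5.09% of all genes.

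Lum encodes lumican, a small leucine-rich proteoglycan that spaces collagen fibrils, and was higher in females. Its signals were 1260.5, 1316.7, 1138.0 and 1121.2 in males and 2368.2, 2348.3, 1911.2 and 2372.7 in females. Female sham 3 lay below the other females but above all males (0.88 ± 0.16, 1.85-fold, limma adjusted p = 0.0111). Without male sham 3 the adjusted p was 0.052, and with the 18S covariate 0.0576. It was the only member past the threshold of 32 matricellular and proteoglycan genes, whose median was -0.02.

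Collagens were near even as a list, with a median of 0.06 over 20 genes and 0 called. At an unadjusted p below 0.05, 4 were higher in females, against 5.09% of all genes, and 0 were lower. Col3a1, the α1 chain of collagen III, came closest, with 3717.8, 2921.8, 4177.0 and 4360.0 in males and 7905.5, 6129.7, 4881.8 and 6720.0 in females. The groups did not overlap, and the difference of 0.75 ± 0.17 lay just outside the threshold (limma adjusted p = 0.0541, and 0.0414 after quantile normalization). Col6a2, a chain of collagen VI, had signals of 359.8, 551.4, 1192.4 and 1402.9 in males and 1202.5 to 1679.1 in females (0.88, limma adjusted p = 0.264), with male sham 4 inside the female range. Col1a1 (-0.06, 0.955) and Col1a2 (0.07, 0.94), the chains of collagen I, were close to 0.

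Smoc2, a calcium-binding protein of the basement membrane, had signals of 972.3, 850.6, 944.5 and 1225.1 in males and of 1723.7, 1421.0, 1826.7 and 1409.1 in females. It too lay just outside the threshold without overlap (0.67 ± 0.15, limma adjusted p = 0.0504). Lama3, a laminin chain, was next on its list (0.68, limma adjusted p = 0.353), and the median of the 17 laminin and basement membrane genes was -0.08. Among 25 elastic fibre and crosslinking genes 0 passed, and the lysyl oxidase relatives Loxl1 (0.57, limma adjusted p = 0.461) and Loxl3 (-0.46, 0.465) had the smallest p in opposite directions. Lox itself did not pass (-0.59, 0.621).

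Itih5, a secreted heavy chain that binds hyaluronan in the matrix and was on none of the lists, had signals of 206.9, 210.5, 282.4 and 296.8 in males and of 802.5, 521.2, 558.8 and 595.0 in females. The lowest female value was well above the highest male value. The difference of 1.26 ± 0.18, or 2.39-fold, had the smallest adjusted p of the genes higher in females (limma adjusted p = 0.00204). It passed without each of the 8 sham arrays in turn.

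Fibroblast markers did not move as 1 group. Of 15 tested, Lum was called higher and Dpep1 lower, and the median was 0.17. At an unadjusted p below 0.05, 5 were higher and 2 lower (5.09% and 5.72% of all genes). Dpep1, a membrane dipeptidase found on cardiac fibroblasts and kidney tubules, had signals of 825.7, 893.9, 820.5 and 659.8 in males and of 372.5, 382.3, 348.2 and 381.7 in females. The female values were nearly equal and lay far below the males (-1.07 ± 0.17, limma adjusted p = 0.00325), and the other probe set passed as well (-0.77, 0.0473). Pdgfra, the platelet-derived growth factor receptor used to identify fibroblasts, had a higher female mean without passing (0.61, limma adjusted p = 0.155). The summed signal of the markers ran from 30481 to 33445 on male and from 33921 to 39381 on female shams. Lum and Col3a1 are themselves on this list and add to that sum, which rests mostly on the brightest probe sets. The part of fibroblasts in the differences of Lum and Col3a1 was not tested.

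**Figure D3:**
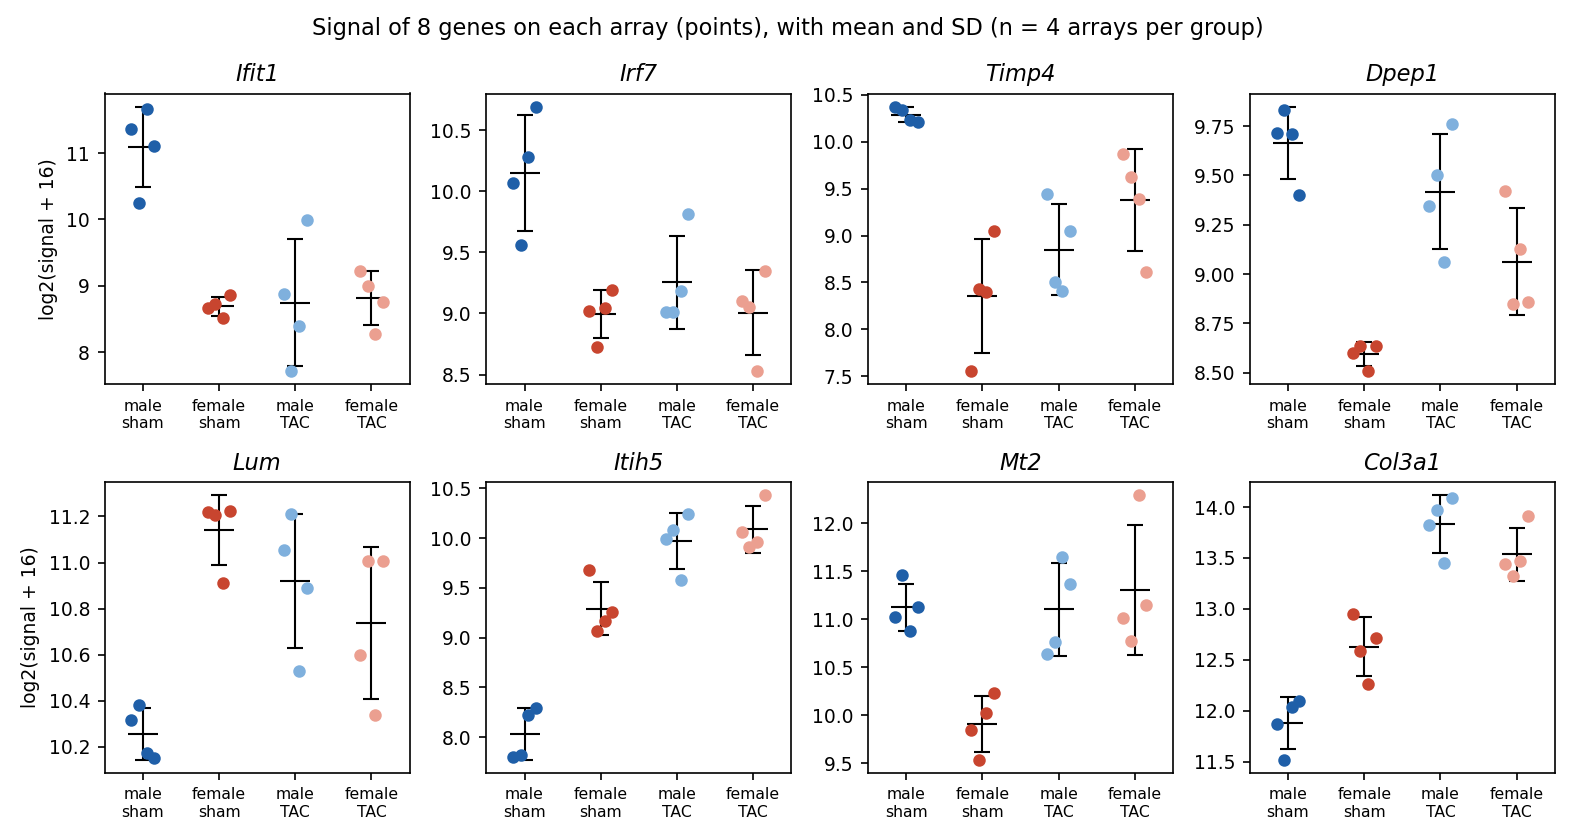
The vertical axes give log2(signal + 16) of 8 genes, with 1 point per array in the 4 groups, the mean as a bar and the SD as whiskers (n = 4). In the sham groups the female and male points of each gene are separate, while in the TAC groups they overlap for all 8.

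The other genes called higher in females were Vim, Actg1, Mcl1, Dab2 and Cks2. Vim, the intermediate filament vimentin of mesenchymal cells, had signals of 2291.9, 1785.6, 2275.1 and 2147.1 in males and 3084.4, 4274.1, 3075.6 and 3415.4 in females. All females were higher (0.69 ± 0.12, limma adjusted p = 0.0111), and both other probe sets had the same sign. Actg1, cytoplasmic γ-actin, had 3617.2, 2986.6, 3122.1 and 4337.0 in males and 5289.5, 5374.4, 5533.6 and 7002.7 in females (0.73 ± 0.13, limma adjusted p = 0.0107). Female sham 4 stood above the other females. The survival gene Mcl1 (0.67, limma adjusted p = 0.0179) and the endocytic adaptor gene Dab2 (0.76, 0.0199) were higher, but no other probe set of either gene passed. The 5 other probe sets of Mcl1 had differences from -0.15 to 0.28, 1 of them with the opposite sign. Both other probe sets of Dab2 had the opposite sign. Cks2, a subunit of cyclin-dependent kinases, had a difference of 1.77 ± 0.36 (limma adjusted p = 0.027), from signals of 18.6 to 103.5 in males, below the signal limit of 130.8, and 111.8 to 214.6 in females. Its other probe set did not pass, and its groups overlapped (0.99, limma adjusted p = 0.294).

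The summed signal of smooth muscle and pericyte markers ran from 24350 to 28505 on male and from 29644 to 31528 on female shams, without overlap. Such a sum rests mostly on the brightest probe sets. Of the 12 tested genes, 8 had a higher and 4 a lower female mean (51.0% of all genes had a lower one), and the median difference was 0.16. None was called with limma, and 2 had an unadjusted p below 0.05, both higher (5.09% of all genes). These were Acta2, smooth muscle α-actin (0.76, limma adjusted p = 0.0616), whose groups did not overlap, and the pericyte gene Rgs5 (0.33, 0.405). The part of these markers in the higher female values was not tested.

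Genes on the steroid lists gave no call. Slc10a6, a transporter of sulphated steroids that was on none of the lists, was called lower and is described below. The median of 23 tested genes of sex steroid reception and metabolism was -0.06. At an unadjusted p below 0.05, 2 were lower and 1 higher (5.72% and 5.09% of all genes). Esrrg, an orphan receptor that drives oxidative metabolism in heart muscle, had signals of 610.9, 573.6, 578.9 and 491.3 in males and 389.1, 392.8, 473.5 and 400.2 in females. The groups were apart, with a difference of -0.43 ± 0.16 that did not pass (limma adjusted p = 0.336). Nrip1, a corepressor of nuclear receptors, had signals of 228.2 to 302.9 in males and 313.8 to 429.4 in females (0.44, limma adjusted p = 0.416). Esr1, estrogen receptor α, lay below the limit, at 29.3 to 85.5 in males and 14.4 to 75.5 in females, and the androgen receptor gene was not analysed here. Cyp1b1, which hydroxylates estradiol, did not pass (-0.44, limma adjusted p = 0.677).

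Glucocorticoid and mineralocorticoid genes leaned lower in females without a call. Of 23 tested, 18 had a lower female mean (51.0% of all genes), 7 of them with an unadjusted p below 0.05 (5.72% of all genes), none had one as higher, and the median was -0.47. For 7 members all female values lay below all male values (3.78% of all genes). The median stayed below 0 under every alternative run, from -0.59 to -0.18. Their summed signal ran from 46192 to 54027 on male and from 35201 to 38275 on female shams.

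Mt2, a metallothionein that binds zinc and is induced by glucocorticoids, had signals of 2063.8, 2801.8, 1871.6 and 2215.5 in males and of 907.6, 728.2, 1021.8 and 1187.2 in females. Every female was lower, and the difference lay just outside the threshold (-1.21 ± 0.27, limma adjusted p = 0.052, and 0.00443 without female TAC 3). Mt1, its neighbour in the family, named after its values were seen, had 6838.6, 8738.3, 8921.5 and 8960.5 in males and 5420.6, 4147.9, 5318.6 and 5631.3 in females (-0.70, limma adjusted p = 0.157). Hsd11b1, the enzyme that regenerates active glucocorticoid inside cells, had 1004.6, 862.6, 847.4 and 846.4 in males and 506.4, 488.5, 588.5 and 543.6 in females. Its groups were again separate (-0.73 ± 0.19, limma adjusted p = 0.135). The receptor gene Nr3c1 (0.20, limma adjusted p = 0.643) and its targets Fkbp5 (-0.69, 0.6) and Per1 (-0.36, 0.64) did not pass.

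Cholesterol and drug metabolism followed no direction. Of 26 cholesterol genes 1 was higher and 2 lower at an unadjusted p below 0.05, with a median near 0, the lipid carrier gene Apod (-0.62, limma adjusted p = 0.273) and the squalene synthase gene Fdft1 (0.61, 0.294) leading in opposite directions. Of 43 drug and retinoid metabolising genes 1 was higher and 4 lower at that level (5.09% and 5.72% of all genes). The smallest p belonged to Ephx2, the soluble epoxide hydrolase, with signals of 4753.8, 5168.2, 4919.5 and 4621.7 in males and 4258.3, 3592.4, 3948.6 and 3589.3 in females (-0.34, limma adjusted p = 0.285).

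The medians of the metabolic lists lay within 0.11 log2 units of 0. The medians were -0.07 for 54 fatty acid genes, -0.11 for 37 lipid synthesis and storage genes, -0.02 for 39 glucose genes, -0.06 for 29 tricarboxylic acid cycle genes (pyruvate dehydrogenase included), -0.03 for 22 ketone and branched-chain amino acid genes, -0.07 for 75 oxidative phosphorylation genes and -0.03 for 23 genes of one-carbon, amine and nucleotide metabolism. None of these members was called with limma. At an unadjusted p below 0.05, 7 fatty acid, 6 lipid, 4 glucose, 5 tricarboxylic acid and 9 oxidative phosphorylation genes were lower in females and 1, 1, 0, 0 and 1 were higher, against 5.72% lower and 5.09% higher of all genes. Summed signals were lower on every female than on every male sham for the fatty acid genes (297464 to 314878 against 329273 to 341578), the glucose genes (140597 to 143758 against 145150 to 159993), the tricarboxylic acid cycle genes (242293 to 261770 against 266465 to 283922) and the oxidative phosphorylation genes (1157086 to 1219387 against 1223497 to 1308774). Such a sum rests mostly on the brightest probe sets. The sums of the other 3 metabolic lists overlapped.

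**Figure D4:**
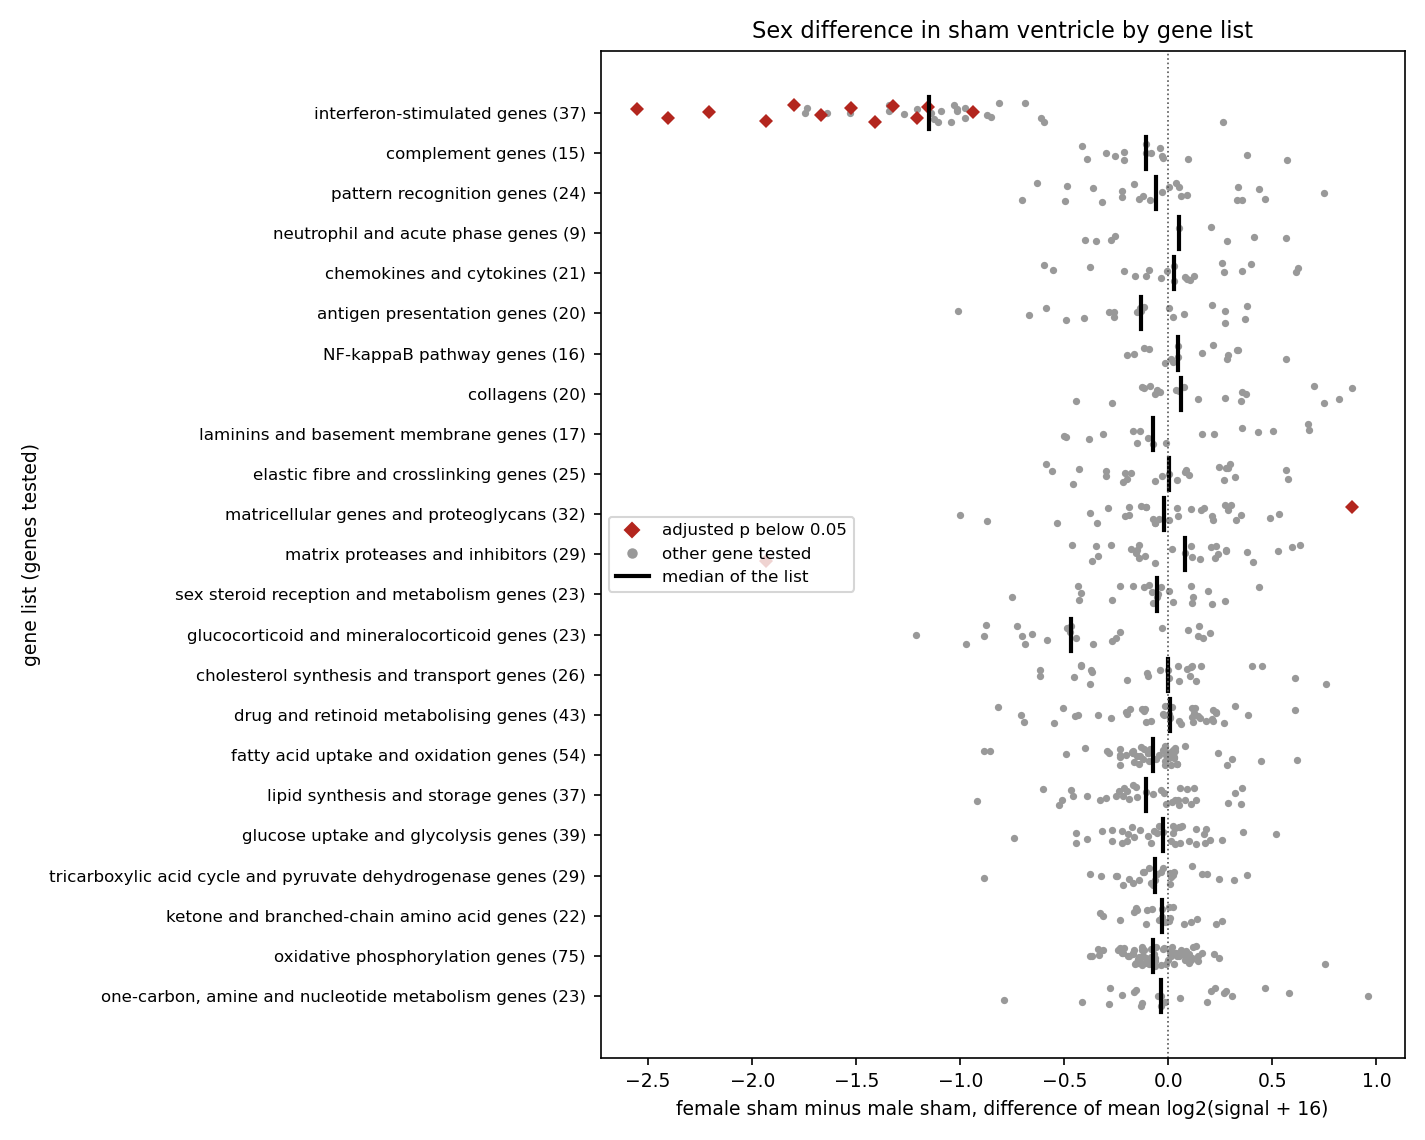
Each point is a tested gene of 1 of the innate immune, matrix, steroid or metabolic lists (1 probe set per gene, number of genes in brackets), placed by its log2 difference between female and male shams, with the list's median as a black bar and called genes as red diamonds. The interferon list (median -1.15) and the glucocorticoid list (-0.47) lie left of 0, and the medians of the metabolic lists lie between -0.11 and -0.02.

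Among mitochondrial enzymes, Mdh2, the malate dehydrogenase of the cycle, had signals of 23158.6, 23903.3, 25731.6 and 23283.5 in males and of 21524.3, 16654.0, 17837.7 and 18196.8 in females. The shift was small but without overlap (-0.38 ± 0.09, limma adjusted p = 0.0776). Dlst, the transferase subunit of the 2-oxoglutarate dehydrogenase complex (-0.32, limma adjusted p = 0.251), and the complex I subunit genes Ndufv3 (-0.31, 0.145) and Ndufa10 (-0.34, 0.245) had differences of the same size and did not pass. Ldhb, the lactate dehydrogenase chain of oxidative muscle, was alike (-0.32, limma adjusted p = 0.204), with 16765.1 to 20728.2 in males and 13690.4 to 15754.4 in females.

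In fat handling the smallest p values belonged to genes in opposite directions. Fabp5, a fatty acid carrier of endothelial cells and macrophages, had signals of 1802.4, 1835.2, 1846.1 and 1908.4 in males and of 3274.9, 3155.2, 2290.4 and 2755.7 in females. The male arrays were nearly equal and lay below all females (0.62 ± 0.16, limma adjusted p = 0.116). Thrsp, a regulator of lipogenesis, had 851.5, 940.8, 895.5 and 1081.7 in males and 216.7, 569.3, 695.4 and 650.7 in females (-0.92 ± 0.25, limma adjusted p = 0.138), with female sham 1 far below the rest. Pnpla2, the lipase that starts the breakdown of stored triglyceride, had 3116.6 to 4447.0 in males and 2398.4 to 2847.9 in females (-0.51, limma adjusted p = 0.157). Pdk4, the kinase that closes pyruvate dehydrogenase, did not pass and overlapped (-0.88, 0.331), and Ppara (-0.20, 0.823), Ppargc1a (0.02, 0.985), Cd36 (-0.14, 0.666) and Fbp2 (0.03, 0.993) did not pass either.

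Adipocyte markers, a sign of adhering fat, overlapped between the groups in summed signal (18861 to 21255 in males and 18732 to 21027 in females), a sum carried mostly by Fabp4, which endothelial cells also express. The median deviation of the 6 tested did not overlap (0.0648 to 0.224 in males and -0.283 to 0.0556 in females), 4 had lower female means, among them Thrsp, described above and also on this list, and 0 were called. Atrial cardiomyocyte markers had a median of -0.41 over 5 tested genes, all with lower female means (51.0% of all genes) and none called. Over all 7 on the array the median was -0.158, and 5 had a lower female mean (51.9% of all autosomal genes without the signal limit). The sums of the tested genes overlapped, at 5802 to 8699 in males and 4182 to 5973 in females. Nppa, the brightest of the 5, is also on the ventricular list. The part of either marker list in the differences above was not tested.

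Further genes lower in females, named after their values were seen, lay outside the lists. Slc10a6, a transporter of sulphated steroids, had signals of 559.0, 548.9, 747.4 and 672.3 in males and of 253.0, 259.5, 354.4 and 355.9 in females. The groups did not overlap (-1.02 ± 0.20, 2.02-fold, limma adjusted p = 0.022). Rgcc, a regulator of the cell cycle responsive to complement, had 4314.9, 3895.2, 5596.8 and 3888.5 in males and 1761.0, 2143.6, 3094.3 and 2007.1 in females (-0.99, limma adjusted p = 0.0255). Mal, a proteolipid of membrane sorting, was lower too (-0.90, limma adjusted p = 0.0278). The other probe sets of Rgcc (-0.52) and Mal (-0.46) had the same sign but did not pass, and that of Mal overlapped between the groups. The calls of Slc10a6, Rgcc and Mal held without 4, 3 and 1 of the 8 sham arrays, respectively, with limma adjusted p up to 0.109, 0.129 and 0.118.

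The calls rested unequally on the arrays. Of the 30, 8 held without each of the 8 sham arrays in turn: Ifit1, Ifit3, Trim30a on the probe set given first, Oasl2, Timp4, Dpep1 on the probe set given first, Itih5 and Vim. Leaving out male sham 3 ended 22 of the 30 calls and leaving out female sham 1 ended 15, and the counts fell to 4 higher and 7 lower without male sham 3 and to 4 higher and 13 lower without female sham 1. Just inside the threshold lay Mndal and the second probe set of Dpep1 (adjusted p = 0.0463 and 0.0473), and just outside Mrap (-1.60), Rsad2, Ifih1 and Rusc1 (-1.09), each at 0.0503.

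In the TAC groups, which share no array with the sham contrast except through the estimate of spread, the same probe sets showed smaller sex differences. Of all autosomal probe sets tested, 2 differed between female and male TAC (0.0166%), and neither was among the 30. Of the 30, 21 had the same sign in TAC (16 of 23 lower and 5 of 7 higher), against 54.7% of all autosomal probe sets, and 3 had an unadjusted p below 0.05 with the same sign. The median difference of the 23 lower probe sets was -1.23 in sham and -0.07 in TAC. Since the probe sets were chosen for their difference in sham, a smaller value in other arrays is in part a property of how they were chosen.

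Ifit1 in TAC had signals of 452.6, 193.8, 320.5 and 1005.2 in males and of 580.3, 492.7, 293.6 and 417.1 in females. Male TAC 5 was the single high array, and the groups overlapped (0.07, limma adjusted p = 0.984). The interferon list had a median of -0.25, 0 of 37 members with an unadjusted p below 0.05 as lower (2.96% of all genes) and 31 lower female means (53.8% of all genes were lower). For none did all female values lie below all male values (1.74% of all genes). Its median deviation, again from the means over the sham arrays, was -0.43, -0.60, -0.49 and 0.46 on male TAC 1, 2, 4 and 5. On female TAC 1, 2, 3 and 5 it was -0.44, -0.43, -1.07 and -0.36, so that only male TAC 5 reached the level of the male shams. Its 18S signal of 13.16 was also the highest among TAC arrays, where the others lay between 9.06 and 10.73. Timp4 had 679.8, 347.0, 324.2 and 512.1 in male and 920.5, 772.7, 656.3 and 375.7 in female TAC, with a difference opposite in sign to that in sham and not past the threshold (0.52, unadjusted p = 0.08). Dpep1 stayed lower in females on both probe sets at an unadjusted p (-0.35, 0.0446, and -0.73, 0.000231).

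Whether the sex difference itself differed between sham and TAC was tested as an interaction. With limma, 0 of 12055 autosomal probe sets passed (0%), 766 had an unadjusted p below 0.05 (6.35%), and the smallest adjusted p was 0.0803, for Timp4. Of the 30 probe sets called in sham, 28 had an unadjusted interaction p below 0.05, a share that the choice of the probe sets raises because both tests use the sham difference.

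**Figure D5:**
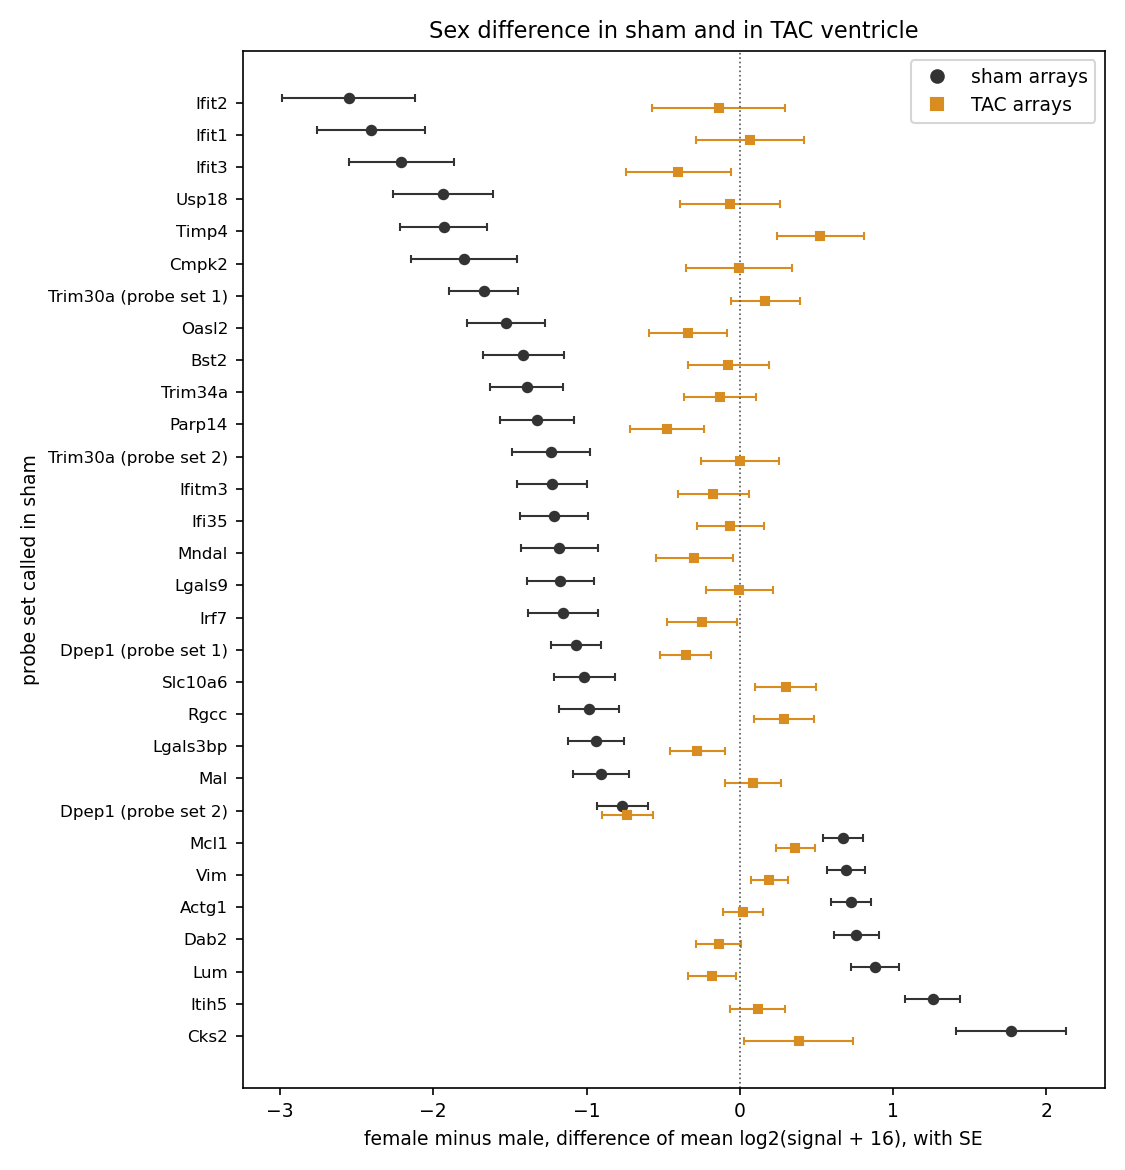
Each row is 1 of the 30 probe sets called in sham, with the female minus male log2 difference and its SE in sham (black circles) and in TAC (orange squares), from the model over 16 arrays (n = 4 per group). All 30 differences are smaller in absolute value in TAC, and 21 keep their sign.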

How the data were processed

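Signals were taken from the authors' deposited table, which gives an intensity for each of 22690 probe sets on 16 arrays. Per the submitters' processing notes the intensities were computed with GCOS; its version and settings are not given in the sources used here. The deposited intensities had been scaled globally, as checked on the values: after trimming 2% of probe sets at each end, the mean was 500.21 to 500.25 on every array. That scaling was kept. The series text names the array RAE 430A, while the probe set names are those of the mouse 430A array. Gene symbols came from GEO's platform annotation (20380 with exactly 1 symbol, 691 with several, 1555 with none), and chromosomes were taken from a RefSeq table (GRCm38.p6) that held 20351 of the former. Only genes on autosomes are described, and probe sets with several symbols name none.

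Values were transformed as log2(signal + 16). The 64 AFFX controls and the 40% of probe sets with the lowest mean over the 16 arrays were left out. The 13576 remaining probe sets, sex-linked and unnamed ones included, entered limma (version 3.58.1, R 4.3.3), as 1 model with 4 group means, empirical Bayes with an intensity trend, 2-sided, Benjamini-Hochberg adjustment, threshold 0.05. All adjusted p values of genes come from limma. Of 42 probe sets called in all, 6 were X-linked and 6 had no single symbol. On simulated data this test recovered 69% of changes of 1 log2 unit and 98% of 2 log2 units, with 12 false calls. Esr1 was fitted without the filter. Detection calls were not used, so a gene below the signal limit may or may not be expressed. Probe sets ending in _s_at or _x_at, such as those of Actg1, Vim and Mcl1, may bind transcripts of related genes.

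Genes were named by rule: of autosomal probe sets past the threshold without overlap, the 12 largest differences in each direction; members of each list past the threshold, up to 5 by p, or otherwise the 1 or 2 of smallest p; and a fixed set of genes. Lists used 1 probe set per gene, that of highest mean, and are described by counts and medians. The members, lists and rules were chosen with earlier results of these data known. The same-numbered sham arrays of the sexes did not deviate together (correlations from -0.0146 to 0.0686), so the numbers were not taken to pair them. Alternatives were other normalization, pseudocounts and filters, array weights, no trend, genes at 1 probe set each, a fit on the compared groups alone, a replicate block, quality covariates and each array left out in turn.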

Additional observations from a re-analysis of the deposited data

Results flagged for a closer look

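Of 108 groups of 4 arrays checked for an array that stood apart, for called genes and list medians in the sham groups, 5 exceeded Dixon's critical value, and chance flags about 1 in 20 groups. Actg1 was highest on female sham 4, with a gap that was 0.839 of the group's range. Lum was lowest on female sham 3 (0.952). The median of the interferon-stimulated genes was lowest on male sham 2 (0.919), that of the NF-κB pathway genes lowest on female sham 3 (0.839) and that of the cholesterol genes lowest on male sham 1 (0.952).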

How the results depend on the processing

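The counts of autosomal probe sets called in sham were 7 higher and 23 lower, with 12 interferon-stimulated genes among the genes called lower. They became 12 higher with a pseudocount of 64, without the signal filter, with the dimmest 60% left out and with array weights (38 lower), 24 higher, 44 lower and 19 interferon-stimulated with the compared groups alone, and 2, 11 and 7 without the intensity trend. The 18S covariate left 12 lower and 6 interferon-stimulated. The 8 sham arrays alone with that covariate, an alternative added after seeing the data, left 0 higher, 1 lower and 0 interferon-stimulated, and all 30 calls were lost. Quantile normalization and median centring kept the counts within 1.5 times. With the replicate block the counts were 14 higher and 37 lower in sham, 1 in TAC and 2 for the interaction, and only 1 male sham correlated best with its own number. The TAC count of 2 became 1 with quantile normalization, without the trend, with 1 probe set per gene or with the Gapdh covariate, and 0 with the compared groups alone. The interaction count of 0 became 1 with a pseudocount of 64 and 2 with the dimmest 60% left out or 1 probe set per gene.

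Leaving out 1 array at a time gave 4 to 15 higher, 7 to 40 lower, 4 to 19 interferon-stimulated, 0 to 5 in TAC and 0 to 9 for the interaction. The lowest sham counts came without male sham 3 and the highest without male TAC 5. The others that moved a sham count by over 1.5 times were female sham 1 (4 higher, 13 lower), male sham 1 (14 lower), male sham 4 (12 higher, 14 lower) and female TAC 3 (11 higher). In TAC the count was 5 without male TAC 5, 0 without male TAC 1 and 1 without male TAC 4, female TAC 3 or 5, male sham 1 or 2, or female sham 2 or 3. The interaction count was 9 without male TAC 5, 2 without female TAC 5 and 1 without male TAC 1, male sham 2 or female sham 4. The cause was not tested.

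Among single genes, reversals of sign concerned uncalled genes. Of 36 list medians, 22 changed sign under at least 1 alternative, among them antigen presentation (-0.24 to 0.16), smooth muscle and pericyte markers (-0.04 to 0.18), matrix proteases and inhibitors (-0.02 to 0.13) and pattern recognition (-0.20 to 0.06), while those of the interferon and glucocorticoid lists did not. With the 18S covariate Col1a1 was 0.0822, Zbp1 0.000564 and Fbp2 -0.809, and with sham arrays alone as well Dhx58 was -0.0321, Zbp1 0.64, Ppargc1a -0.156, Ppara 0.00341 and Fbp2 -0.169. With the Gapdh covariate Col1a1 was 0.00192 and Ppargc1a -0.0278, and with array weights Ppargc1a was -0.0113. Over arrays left out in turn, Col1a1 ran from -0.167 to 0.0107, Ppargc1a from -0.0769 to 0.0885 and Fbp2 from -0.0995 to 0.107.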

Other observations

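Lists of cell state, not part of the comparisons above, gave no call in sham with limma. Of 12 circadian clock genes tested, the median female minus male log2 difference was 0.10, and Bhlhe40, a repressor within the clock, had a difference of 0.69 (limma adjusted p = 0.253). The summed signal of the clock genes ran from 11429 to 14187 on male and from 14228 to 14864 on female shams, while their median deviations overlapped (-0.03 to 0.08 and 0.01 to 0.12). The median of 18 immediate early genes tested was 0.17. At an unadjusted p below 0.05, 2 were higher and 1 lower (5.09% and 5.72% of all genes). They were Ier3 (0.66, limma adjusted p = 0.244), Ier5 (0.74, 0.354) and Egr3 (-0.75, 0.447). The hour at which the tissue was taken is not given in the sources used here. Endothelial markers had a median near 0 over 15 genes, with 0 called.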
